A study of Mus musculus with 16 samples.

Results

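Expression was examined for 32 genes of glycolysis and of the hypoxia response, chosen by gene symbol from the 55536 genes of a deposited RNA-seq count table of mouse tissues; all 32 were found. The table covers tumor, MSC and bone marrow from mice with a K74R allele of a KLF gene (genotype label KLF K74R, arginine in place of lysine; called KO in the sample titles) and from wild-type mice (KLF WT). There were 3 K74R and 3 WT tumor libraries, 2 K74R and 2 WT MSC libraries, and 3 K74R and 3 WT bone marrow libraries. Which KLF gene carries the change is not in the labels, and MSC is left unexpanded there. The tumors were formed by the murine colon adenocarcinoma line MC38 and taken at no more than 1000 mm3; the genotype is that of the mouse, and tumor counts mix transcripts of MC38 cells and of host cells. The stated purpose was to compare the genotypes in each tissue. The labels do not say whether replicates came from different mice or cultures, so each p-value reflects the spread among these libraries alone, and that spread may be technical.

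Glycolysis splits glucose into pyruvate: transporters bring glucose in, hexokinase and phosphofructokinase commit it, aldolase and triose isomerase split it, and the later enzymes recover ATP and NADH. Lactate dehydrogenase turns pyruvate into lactate, which monocarboxylate transporters export, while pyruvate dehydrogenase kinases hold pyruvate back from the mitochondria. The transcription factor HIF-1 (its oxygen-sensitive subunit is encoded by Hif1a) induces many of these genes when oxygen is low, by binding short ACGTG or GCGTG elements, and prolyl hydroxylases of the Egln family mark its subunit for degradation when oxygen is present. Marrow neutrophils and many tumors are known for relying on glycolysis.

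The libraries held 14067259 to 18923751 counts. Levels are CPM, the read counts of a gene scaled to a common library total with trimmed mean of M-values factors over all 16 libraries, and 3 counts in a library correspond to 0.149 to 0.223 CPM. The labelled tissues were checked against marker lists. Bone marrow had 34760 to 45040 summed CPM of 11 erythroid markers and 31550 to 41040 of 15 neutrophil markers. MSC libraries had 13380 to 17620 summed CPM of 12 fibroblast and stromal markers, and also 3886 to 14530 of 10 macrophage markers and Ptprc, the pan-leukocyte CD45 gene, at 84.9 to 435 CPM. In tumors 9 epithelial markers summed to 4.72 to 9.18 CPM, with Epcam, Krt8 and Krt18 each under 1 CPM in each tumor and Cdh1, which encodes E-cadherin, at 3.76 to 7.70 CPM.

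Promoters are shown for 5 genes on which the genotype comparisons turned: Ldha, Pgk1, Slc16a3 and Pfkp, whose genotype difference in MSC differed from both other tissues, and Pdk1, which fell in K74R bone marrow. The sequences are RefSeq promoters on GRCm38.p6, 250 bases before to 50 bases after a transcription start, 5′ to 3′ on the gene's strand. Where RefSeq lists several starts, the one nearest the 5′ end of the gene in GENCODE M21 was taken. Capitals mark ACGTG or GCGTG on either strand. The windows are chr7:46845554-46845853 (plus strand) for Ldha, chrX:106186850-106187149 (plus) for Pgk1, chr11:120948817-120949116 (plus) for Slc16a3, chr13:6648722-6649021 (minus) for Pfkp and chr2:71872974-71873273 (plus) for Pdk1.
Ldha: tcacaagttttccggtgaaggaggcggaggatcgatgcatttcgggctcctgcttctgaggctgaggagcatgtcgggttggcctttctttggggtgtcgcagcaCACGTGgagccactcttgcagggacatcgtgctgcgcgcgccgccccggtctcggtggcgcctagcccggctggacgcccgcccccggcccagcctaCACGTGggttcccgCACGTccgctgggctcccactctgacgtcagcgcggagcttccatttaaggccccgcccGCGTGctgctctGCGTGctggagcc
Pgk1: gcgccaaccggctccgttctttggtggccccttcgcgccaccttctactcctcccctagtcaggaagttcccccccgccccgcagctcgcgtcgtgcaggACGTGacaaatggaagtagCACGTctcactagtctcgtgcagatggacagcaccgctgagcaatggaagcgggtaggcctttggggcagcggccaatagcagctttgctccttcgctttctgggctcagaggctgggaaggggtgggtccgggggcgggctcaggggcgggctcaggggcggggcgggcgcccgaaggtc
Slc16a3: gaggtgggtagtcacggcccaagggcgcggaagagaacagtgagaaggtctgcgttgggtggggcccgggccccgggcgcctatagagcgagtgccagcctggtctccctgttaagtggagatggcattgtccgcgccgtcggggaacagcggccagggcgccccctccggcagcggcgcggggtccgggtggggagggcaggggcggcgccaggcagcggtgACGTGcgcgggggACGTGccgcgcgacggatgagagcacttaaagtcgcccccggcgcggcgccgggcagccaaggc
Pfkp: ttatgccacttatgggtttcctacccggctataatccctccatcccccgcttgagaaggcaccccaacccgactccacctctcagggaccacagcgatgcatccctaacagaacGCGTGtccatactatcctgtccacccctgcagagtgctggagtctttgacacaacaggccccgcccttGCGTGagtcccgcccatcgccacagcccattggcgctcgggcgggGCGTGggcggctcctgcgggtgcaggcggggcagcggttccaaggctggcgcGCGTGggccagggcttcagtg
Pdk1: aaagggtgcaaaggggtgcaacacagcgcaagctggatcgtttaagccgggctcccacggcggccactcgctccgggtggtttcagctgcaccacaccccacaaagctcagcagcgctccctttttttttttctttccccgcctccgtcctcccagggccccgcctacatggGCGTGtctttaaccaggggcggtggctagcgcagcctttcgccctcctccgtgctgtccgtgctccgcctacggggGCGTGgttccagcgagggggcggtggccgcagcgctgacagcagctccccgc

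The Ldha window held 7 matches, in which each of its 2 palindromic CACGTG runs counts once on each strand, Pfkp held 4, and Pgk1, Slc16a3 and Pdk1 held 2 each. A promoter was matched for 31 of the 32 genes (all but Slc2a3), and 24 of the 31 (77.4%) held at least 1 match, against 43.8% of all 32851 RefSeq promoters of the same length. At least 2 matches were present in 58.1% of the 31 and in 20.6% of all promoters. The windows of Hk1, Gpi1, Aldoa, Tpi1, Eno2, Pkm and Vegfa held none. For Hk1, Aldoa, Pkm and Vegfa RefSeq lists further starts, which were not counted, and sequence outside the windows was not searched. The shares of all promoters include every listed start, not 1 per gene, and were not matched for base content. These letters are a description of the windows and show no binding.

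Across tissues most of the genes were higher in tumor and in MSC than in bone marrow. In WT libraries 26 of 32 were higher and 5 lower in tumor than in bone marrow by edgeR quasi-likelihood testing with Benjamini-Hochberg correction (adjusted p under 0.05). Tissue differences were common: 72.7% of all 18191 genes tested passed in this comparison, 36.5% higher and 36.2% lower. The median log2 fold change was 1.44 over the 32 genes and 0.00 over all genes. In WT MSC 21 were higher and 5 lower than in WT bone marrow, with 69.5% of all genes called (33.5% higher and 36% lower), and a median of 1.14 against -0.08. Between WT tumor and WT MSC, 9 were higher and 10 lower in tumor, with 66% of all genes called (34.1% and 31.9%). The MSC values rest on 2 WT libraries that stood apart: 23 genes were higher than in bone marrow without WT MSC 1 and 17 without WT MSC 2, and the counts of tumor against MSC became 5 higher and 12 lower without WT MSC 1 and 14 higher and 7 lower without WT MSC 2; without WT tumor 2, 5 were higher. Shares of all genes were not computed for the fits without a library. In bulk samples fewer cells of a type and less RNA per cell cannot be told apart.

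**Figure D1:**
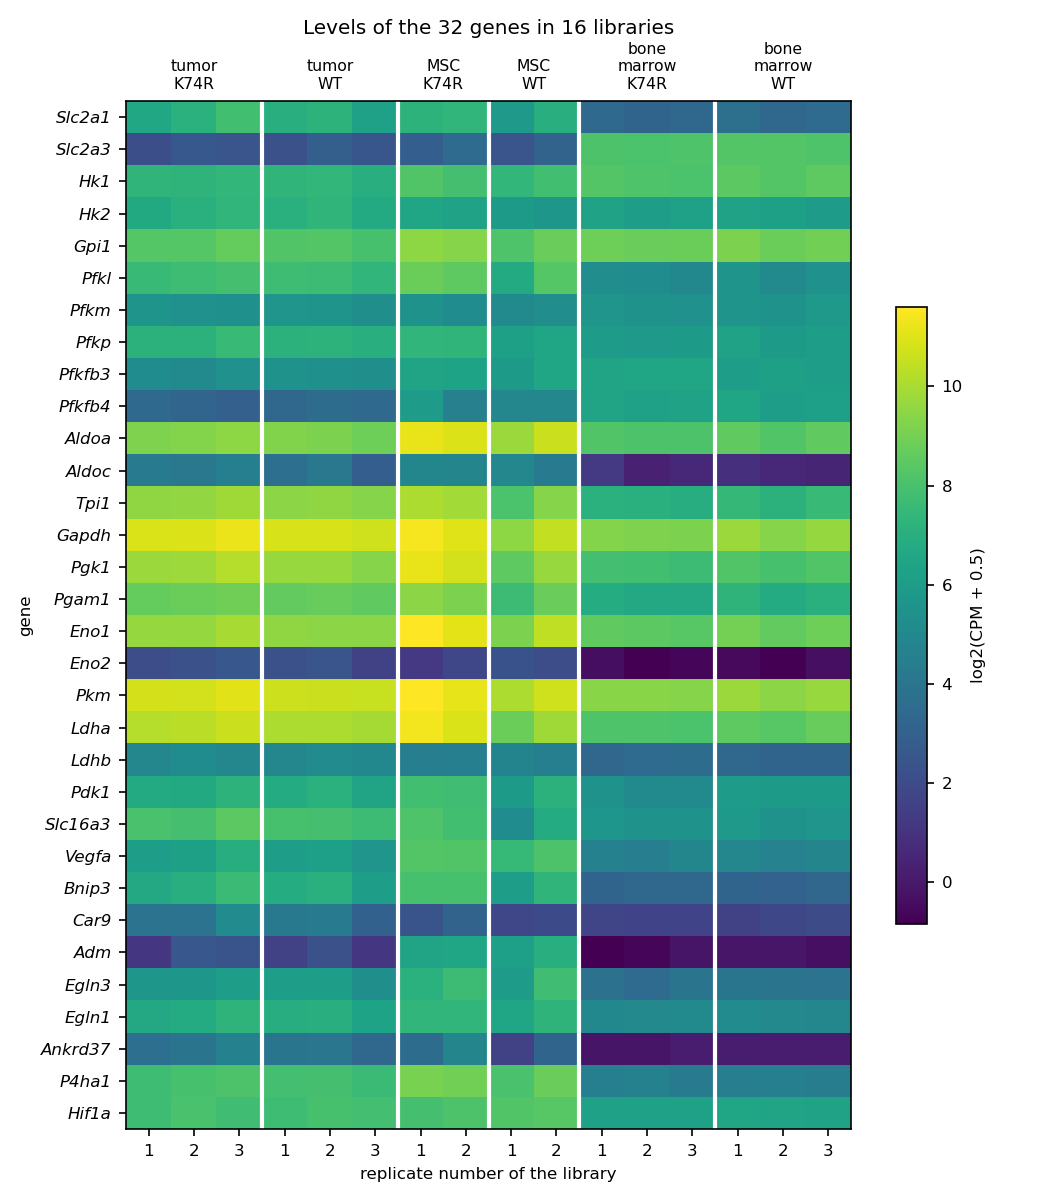
Levels of the 32 genes as log2(CPM + 0.5), 1 column per library and 1 row per gene, grouped as tumor, MSC and bone marrow with K74R left of WT. Slc2a3 and Pfkfb4 were highest in bone marrow, most other rows were brighter in tumor and MSC, and WT MSC 1 was darker than the other MSC libraries for most enzymes.

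The 2 glucose transporter genes had opposite tissue patterns. Slc2a1, the widely expressed transporter GLUT1, had 128, 148 and 76.7 CPM in WT tumors and 59.4 and 131 CPM in WT MSC, against 13, 9.74 and 10.8 CPM in WT bone marrow. Slc2a3, the high-affinity transporter GLUT3, had 4.35, 7.23 and 5.08 CPM in WT tumors and 4.88 and 8.3 CPM in WT MSC, against 308, 306 and 293 CPM in WT bone marrow. No WT tumor or WT MSC library overlapped bone marrow for either gene. Over bone marrow, Slc2a1 had log2 fold changes of 3.35 (SE 0.36) in tumor and 3.05 (SE 0.38) in MSC, and Slc2a3 of -5.80 (SE 0.23) and -5.56 (SE 0.27); all 4 passed the threshold. The contrast of tumor with MSC did not pass for either transporter (0.30, SE 0.36, and -0.24, SE 0.25; adjusted p = 0.475 and 0.406 from edgeR quasi-likelihood testing with Benjamini-Hochberg correction), and their libraries overlapped.

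The first enzymes went both ways. Hk1, the housekeeping hexokinase, had 159, 169.7 and 130.4 CPM in WT tumors and 169 and 227 CPM in WT MSC, against 359.8, 306 and 362 CPM in WT bone marrow, and fell in both against marrow (log2 fold changes -1.20 and -0.82). Hk2, the inducible hexokinase, rose in tumor, with 133, 158 and 109 CPM in WT tumors against 79.7, 75 and 66.4 CPM in WT bone marrow (log2 fold change 0.82, SE 0.16, adjusted p = 0.000338 from edgeR quasi-likelihood testing with Benjamini-Hochberg correction). In WT MSC it had 60.6 and 53 CPM and did not pass against bone marrow. Gpi1, glucose-6-phosphate isomerase, was lower in WT tumor and WT MSC than in bone marrow (log2 fold changes -0.85 and -0.52), but with K74R in place of WT libraries the MSC difference turned to 0.61. Of the phosphofructokinases, which catalyse the committed step, Pfkl, the liver-type subunit, rose in tumor (2.18, SE 0.29) and MSC (2.32, SE 0.31), Pfkp, the platelet-type one, rose in tumor (0.93, SE 0.14), and Pfkm, the muscle-type one, fell in MSC (-0.53, SE 0.14). Pfkm was the single gene of the 32 that did not pass between WT tumor and WT bone marrow (-0.15, SE 0.13). The enzymes that set the activator fructose-2,6-bisphosphate leaned to marrow: Pfkfb4 had 9.41, 11.3 and 10.1 CPM in WT tumors and 30.1 and 29.8 CPM in WT MSC, against 90.2, 70.6 and 72.2 CPM in WT bone marrow, and fell in both. Pfkfb3 fell in tumor (-0.75, SE 0.12) and not in MSC (0.06, SE 0.14).

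From aldolase to lactate the enzymes rose together over bone marrow. All 3 genes of aldolase and triose isomerase (Aldoa, Aldoc and Tpi1) passed as higher in WT tumor. So did all 6 of the later steps down to pyruvate (Gapdh, Pgk1, Pgam1, Eno1, Eno2 and Pkm). All 4 for the fate of pyruvate and lactate (Ldha, Ldhb, Pdk1 and Slc16a3) passed as higher there as well. Ldha, which encodes the muscle-type subunit of lactate dehydrogenase, had 1076, 1082 and 969 CPM in WT tumors and 443 and 919.9 CPM in WT MSC, against 368, 332 and 418 CPM in WT bone marrow. Slc16a3, the lactate exporter MCT4, had 252, 241 and 205 CPM in WT tumors and 36.3 and 113 CPM in WT MSC, against 57.5, 44.8 and 49.8 CPM in WT bone marrow. It rose in tumor over marrow (2.16, SE 0.29) and over MSC (1.63, SE 0.33), while WT MSC overlapped marrow. In WT MSC every gene of these 3 groups but Gapdh and Slc16a3 also passed as higher. Pdk1 turned to -0.03 there without WT MSC 2. Gapdh did not pass between WT MSC and bone marrow (0.42, SE 0.22). Eno2, the neuronal enolase, had 4.2, 5.05 and 2.62 CPM in WT tumors and lay at the detection floor in marrow (0.0637 to 0.297 CPM). Aldoc, the brain-type aldolase, had 12.8, 17 and 6.96 CPM in WT tumors, against 1.31, 1.02 and 0.89 CPM in WT bone marrow. Per kilobase of the union of exons, Gapdh led in WT tumors at 434 ± 23.4 CPM per kilobase and in WT bone marrow at 187 ± 25 (SD, n = 3 each). In WT MSC Aldoa led at 416 ± 178 (SD, n = 2). The order depends on the exon length used. The union and the longest transcript are 4133 and 3289 bases for Gapdh, and 5001 and 2432 bases for Pkm. By the longest transcript Pkm lies above Gapdh in WT tumors and WT bone marrow. Gapdh, Pgk1, Ldha, Pgam1, Aldoa and Eno1 have near-identical copies or pseudogenes in the genome, and the sources used here do not give how such reads were counted, so their levels are uncertain to that extent.

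Of the 6 hypoxia-induced genes outside glycolysis (Adm, Vegfa, Car9, Bnip3, P4ha1 and Ankrd37), 2 were higher and 3 lower in WT tumor than in WT MSC, beside 34.1% and 31.9% of all genes, and Bnip3 did not pass. Adm, which encodes the vasodilator adrenomedullin, had 2.48, 4.21 and 1.71 CPM in WT tumors and 72 and 125 CPM in WT MSC, against 0.46, 0.446 and 0.297 CPM in WT bone marrow, and fell in tumor against MSC by 5.13 on the log2 scale (SE 0.40). Vegfa, the angiogenic growth factor, had 70.4, 72.7 and 50.1 CPM in WT tumors and 181 and 277 CPM in WT MSC, against 30.2, 25 and 28.2 CPM in WT bone marrow, and was highest in MSC, where it passed over tumor and over marrow. Car9, the membrane carbonic anhydrase used as a marker of hypoxia, had 17.9, 18.8 and 7.7 CPM in WT tumors and 3.03 and 3.4 CPM in WT MSC, against 2.56, 3.12 and 3.48 CPM in WT bone marrow. Car9 thus rose in tumor over both (2.24 over marrow and 2.20 over MSC), while MSC and marrow libraries overlapped. Bnip3, a mitophagy receptor, and P4ha1, a collagen prolyl hydroxylase subunit, rose in tumor (3.60 and 3.34) and in MSC (3.72 and 3.96). Ankrd37, a small hypoxia-induced ankyrin-repeat gene, had 15.6, 16.4 and 9.52 CPM in WT tumors and 2.6 and 8.43 CPM in WT MSC, against 0.592, 0.637 and 0.593 CPM in WT bone marrow; its log2 fold change of tumor over MSC was 1.33 in WT libraries and -0.17 in K74R libraries. Hif1a itself had 216, 256 and 236 CPM in WT tumors and 296 and 326 CPM in WT MSC, against 88, 84.6 and 81.6 CPM in WT bone marrow, with no overlap between any pair of these groups.

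**Figure D2:**
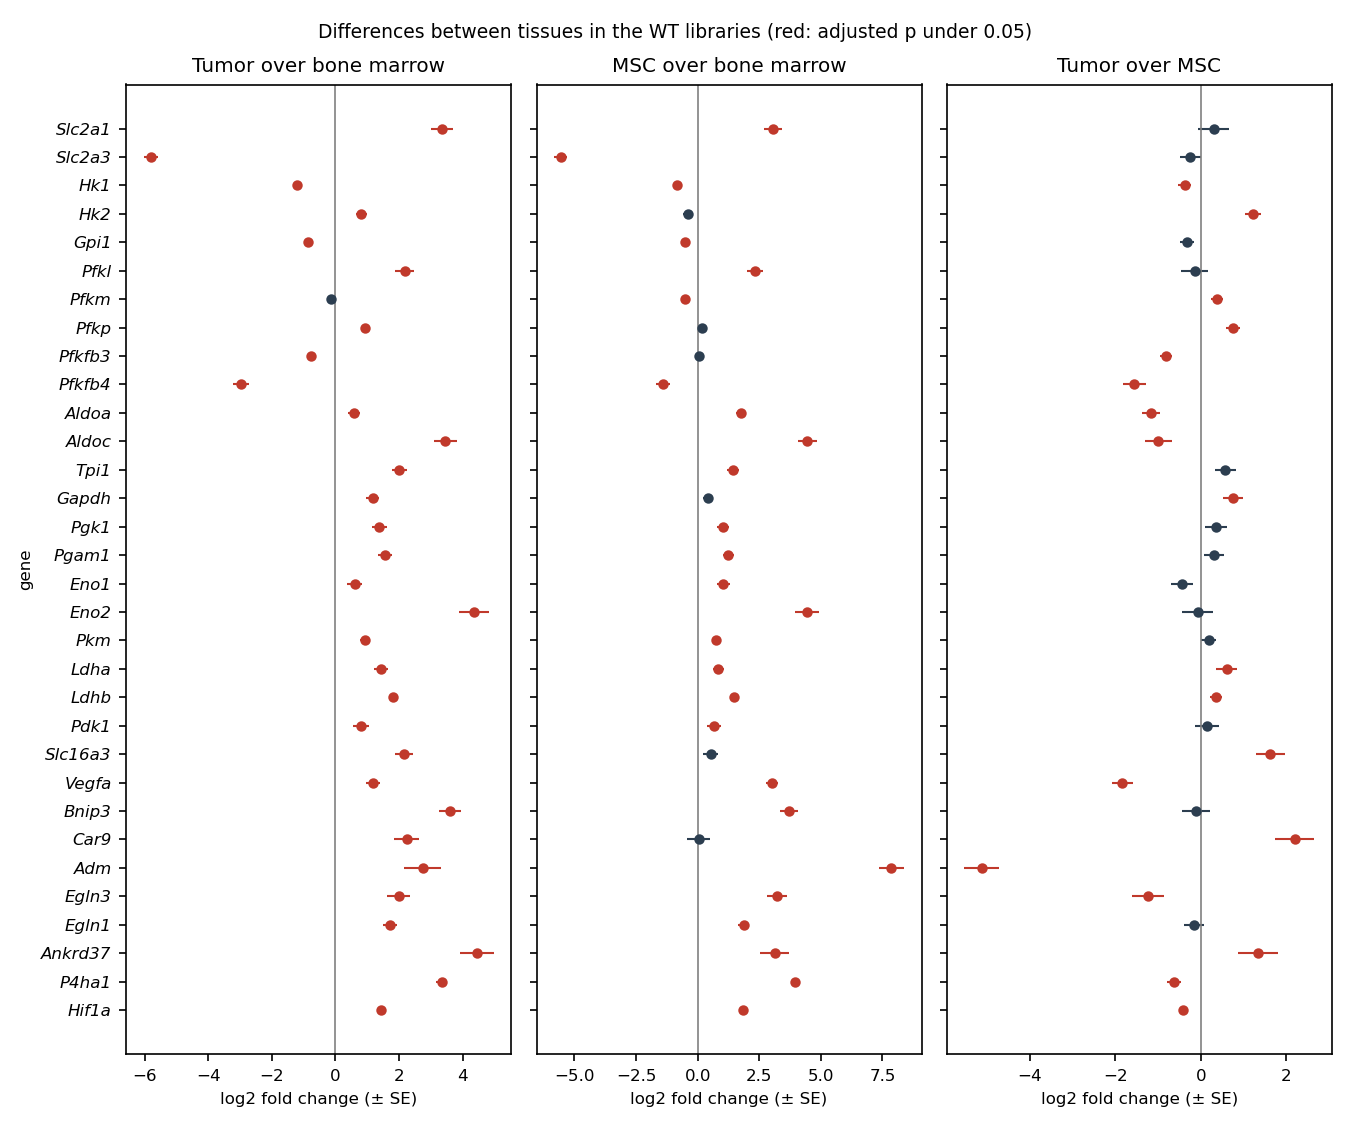
Log2 fold change with its SE (bars) of each gene between tissues in WT libraries, from a model of all 16 libraries; red points passed an adjusted p of 0.05. Slc2a3 lies far to the left and Adm far to the right in the panel of MSC over bone marrow, and the points of tumor over MSC lie on both sides of 0.

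Of 8 isozyme families, aldolase, enolase and lactate dehydrogenase had the same leading member in all 3 tissues (Aldoa, Eno1 and Ldha), and per union of exons the leader by median share differed between tissues in the other 5. Shares are each member's CPM per kilobase of exon as a percent of its family, given as the median over the libraries of a tissue (6 tumor, 4 MSC and 6 bone marrow), with no test. Slc2a1 made up 98.1% of the Slc2a1 and Slc2a3 pair in tumor and 96.9% in MSC, against 6.74% in bone marrow, and the ranges did not overlap between marrow (6.09 to 8.04%) and the others. Pfkl made up 55.5% of phosphofructokinase in tumor and 71.2% in MSC, and Pfkm made up 58.7% in bone marrow. Among the prolyl hydroxylases the leader was Egln1 in tumor (49.2%), Egln3 in MSC (51.3%, range 38 to 59%) and Egln2 in bone marrow (41.2%, with Egln1 at 37%). Pdk1 led the pyruvate dehydrogenase kinases in no tissue: Pdk3 led in tumor (59.5%) and bone marrow (64.5%), and Pdk4 led in MSC (74.2%), where Pdk1 held 11.1%. Ldha held 94.3% of lactate dehydrogenase in tumor, 96.2% in MSC and 94.3% in bone marrow. The hexokinase order depended on the exon length used. Per union of exons Hk2 led in tumor (49.2%) and Hk3, the leukocyte hexokinase, in bone marrow (52.8%). In MSC Hk3 (42%) and Hk1 (40.6%) were close, and each led in 2 of the 4 libraries. Per longest transcript Hk1 led in all 3.

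**Figure D3:**
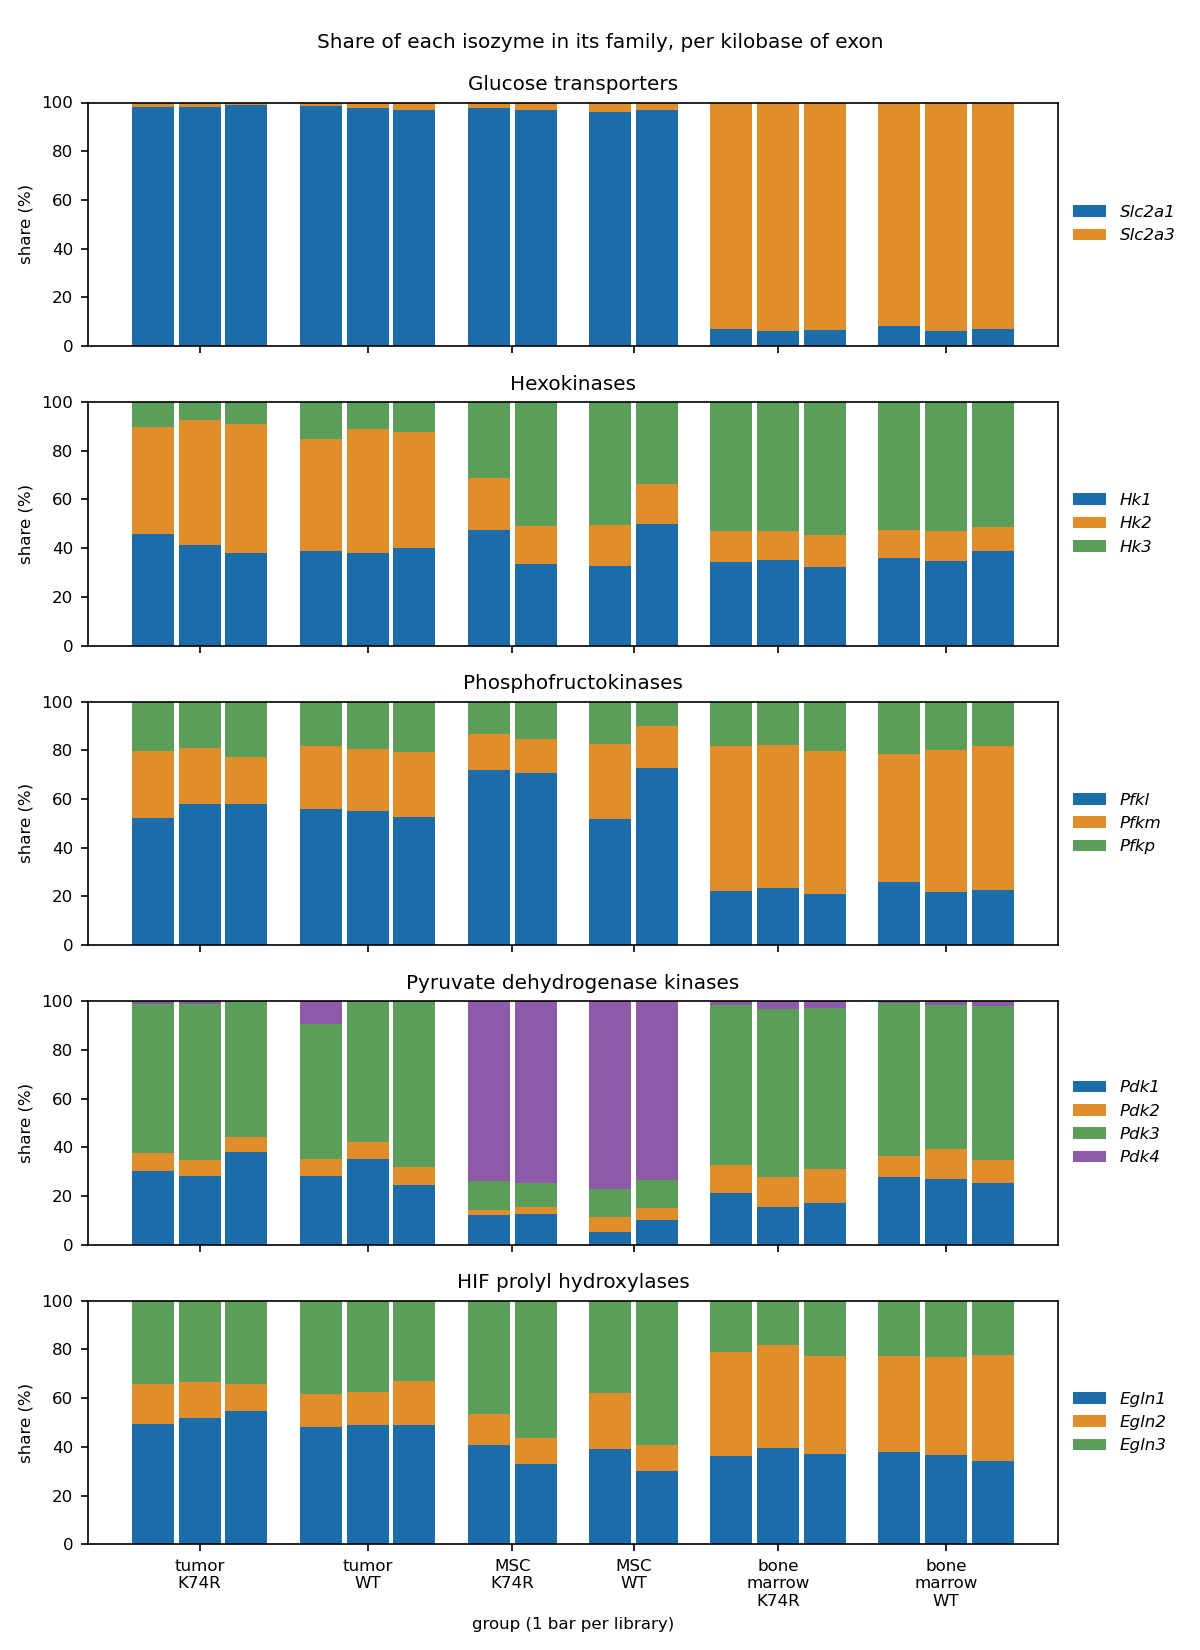
Percent of the family's summed CPM per kilobase of exon held by each isozyme, 1 stacked bar per library, with K74R left of WT in each tissue. Slc2a3 fills the bone marrow bars and Slc2a1 the others, and Pdk4 holds 73.6 to 77.2% in the 4 MSC libraries. The 2 WT MSC libraries differ in the hexokinase, phosphofructokinase and prolyl hydroxylase panels. The 2 K74R MSC libraries also differ in the hexokinase panel (Hk3 at 31.35 and 50.84%) and for Egln3 (46.41 and 56.25%).

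Within MSC the log2 fold changes between genotypes were wide, but no gene passed. Of 32 genes tested, 28 had a positive log2 fold change (K74R over WT), with a median of 0.77, against 50.1% positive and a median of 0.00 over all 14475 genes. By edgeR quasi-likelihood testing with Benjamini-Hochberg correction 0 were called, against 3.34% of all genes; 15 were higher at an unadjusted p under 0.05 and none lower (13.5% of all genes were higher). DESeq2 called 12 as higher and limma-voom 0. In 22 genes both K74R libraries lay above both WT libraries and in 3 below (Eno2, Ldhb and Hif1a), against 29.7% and 29.5% of all genes. With all 16 libraries in 1 model, which changes the spread, the genes tested and the scaling together, 17 genes passed as higher, and 16 passed without a low-count filter. The share of all genes called was computed for the main edgeR fit alone, not for these other settings. WT MSC 1 was the lowest of the 4 libraries for 26 of the 32 genes. Without it 0 genes passed and the median was 0.55; without WT MSC 2, 4 passed (Pgk1, Pdk1, Slc16a3 and Bnip3) and the median was 1.17.

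Uptake and the upper steps in MSC ran as follows. Slc2a1 had 149.7 and 162 CPM in K74R MSC, against 59.4 and 131 CPM in WT MSC. Hk2 had 91.8 and 81.4 CPM in K74R MSC, against 60.6 and 53 CPM in WT MSC, with no overlap. Pfkp had 164 and 157 CPM in K74R MSC, against 73.9 and 89.5 CPM in WT MSC, the gene nearest the threshold (log2 fold change 0.97, SE 0.18, adjusted p = 0.0531 from edgeR quasi-likelihood testing with Benjamini-Hochberg correction). Gpi1 had 729 and 657 CPM in K74R MSC, against 293 and 430.3 CPM in WT MSC (log2 fold change 0.94, SE 0.25). For Pfkl the K74R libraries lay at 361 to 442 CPM, against 109.8 to 320.2 CPM in WT, where WT MSC 2 was nearly as high as K74R MSC 2. The genotypes overlapped for Slc2a3, Pfkm, Pfkfb3 and Pfkfb4.

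Of the 13 genes from aldolase to lactate export, 10 were higher in both K74R libraries than in both WT libraries, as were 29.7% of all genes. Pgk1, phosphoglycerate kinase, had 2300 and 1722 CPM in K74R MSC, against 362 and 823 CPM in WT MSC (log2 fold change 1.77, SE 0.43, adjusted p = 0.0823 from edgeR quasi-likelihood testing with Benjamini-Hochberg correction). Ldha had 2704 and 1883 CPM in K74R MSC, against 443 and 919.9 CPM in WT MSC (log2 fold change 1.75, SE 0.42, adjusted p = 0.0771 by the same test, edgeR with Benjamini-Hochberg adjustment). Both K74R libraries lay above both WT libraries for each gene, with K74R MSC 1 the highest and WT MSC 1 the lowest. Slc16a3 had 294 and 230.5 CPM in K74R MSC, against 36.3 and 113 CPM in WT MSC (log2 fold change 1.81, SE 0.52). Eno1, the main enolase, had 3112 and 2180 CPM in K74R MSC, against 576 and 1342 CPM in WT MSC, and Pdk1 had 232 and 224 CPM in K74R MSC, against 61.4 and 141 CPM in WT MSC. Gapdh, Aldoa, Tpi1, Pgam1 and Pkm had log2 fold changes of 1.16, 0.83, 1.13, 0.99 and 0.97, none with overlap. The summed level of the 17 glycolytic enzymes from hexokinase to lactate dehydrogenase was 19850 and 15150 CPM in K74R MSC, against 5306 and 10000 CPM in WT MSC. The other 3 of the 13, Ldhb, Eno2 and Aldoc, are second isozymes. Ldhb (heart-type lactate dehydrogenase) had 22.3 and 23 CPM in K74R MSC, against 26.7 and 23.1 CPM in WT MSC, and Eno2 had 1.89 and 3.03 CPM in K74R MSC, against 4.45 and 3.88 CPM in WT MSC, both lower in K74R without overlap. Aldoc overlapped, with 29.4 and 27.6 CPM in K74R MSC, against 29.5 and 19.1 CPM in WT MSC.

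Among the other hypoxia-induced genes in MSC, Bnip3 had 252 and 254 CPM in K74R MSC, against 69.2 and 159 CPM in WT MSC, Ankrd37 had 11.2 and 27.5 CPM in K74R MSC, against 2.6 and 8.43 CPM in WT MSC, and Car9 had 4.85 and 8.13 CPM in K74R MSC, against 3.03 and 3.4 CPM in WT MSC. The K74R libraries were higher in each, without overlap. Vegfa differed less, with 306 and 296 CPM in K74R MSC, against 181 and 277 CPM in WT MSC. Adm and Egln3 overlapped between genotypes, and Hif1a was lower in both K74R libraries, with 243 and 283 CPM in K74R MSC, against 296 and 326 CPM in WT MSC (log2 fold change -0.24, SE 0.19). Marker levels moved with genotype in MSC, where 3.34% of all genes were called in either direction. The 10 macrophage markers summed to 3886 and 5344 CPM in K74R MSC, against 14530 and 12120 CPM in WT MSC (2 of 10 fell), and 9 endothelial markers to 93 and 103 CPM in K74R MSC, against 378 and 1868 CPM in WT MSC (4 of 8 tested fell). The 8 proliferation markers summed to 1018 and 1414 CPM in K74R MSC, against 365 and 229 CPM in WT MSC (6 of 8 rose), and 7 adipocyte markers to 831 and 717 CPM in K74R MSC, against 104 and 96.8 CPM in WT MSC (2 of 6 tested rose). The 12 stromal markers summed to 13380 and 17620 CPM in K74R, against 13560 and 14610 CPM in WT. The part of cell composition and proliferation in the glycolytic values was not tested.

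**Figure D4:**
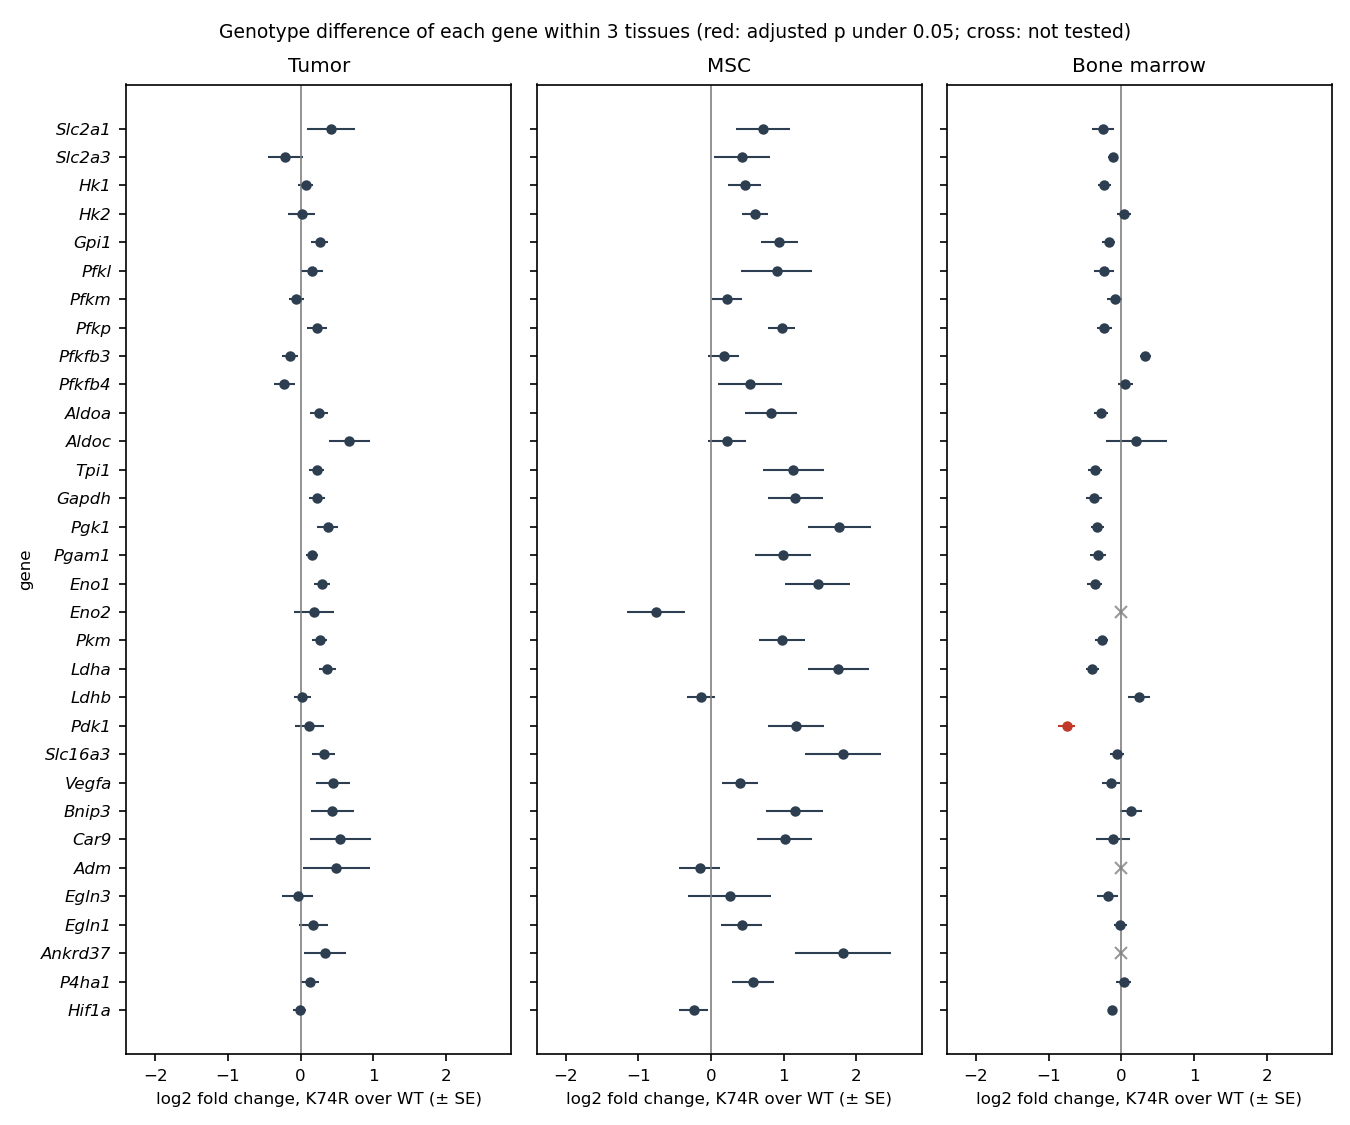
Log2 fold change of K74R over WT with its SE (bars) for each gene, tested within tumor, MSC and bone marrow; a cross marks a gene too low to test. The MSC points lie mostly to the right of 0 with wide bars, the bone marrow points from Aldoa to Ldha mostly to the left, and Pdk1 in bone marrow is the 1 point in red.

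In bone marrow Pdk1 fell in K74R, and the glycolytic enzymes from aldolase to lactate dehydrogenase were mostly lower without passing the threshold. Pdk1, which encodes the HIF-induced pyruvate dehydrogenase kinase, had 44.7, 33.3 and 33.1 CPM in K74R bone marrow, against 63.2, 61.7 and 62.2 CPM in WT bone marrow. Every K74R library lay below every WT library (log2 fold change -0.75, SE 0.12, adjusted p = 0.0301 from edgeR quasi-likelihood testing with Benjamini-Hochberg correction). It was the 1 gene called of 29 tested, with 0.773% of all 14872 genes called in either direction and 0.262% as lower. DESeq2 called 6 genes as lower and 1 as higher. The share of all genes called was not computed for DESeq2 or for the fits without a library. Pdk1 passed under 10 of 15 alternatives. The adjusted p of Pdk1 was 0.283 with all 16 libraries in 1 model, 0.175 and 0.155 without K74R 2 or 3, and 0.0742 and 0.138 without WT 1 or 3, by edgeR with Benjamini-Hochberg adjustment. Leaving out WT 2 raised the calls to 9 lower and 1 higher. Pdk1 held 18.1 ± 3.02% of the pyruvate dehydrogenase kinases per kilobase in K74R bone marrow and 26.7 ± 1.34% in WT bone marrow (SD, n = 3 each). Eno2, Adm and Ankrd37 were too low in marrow to be tested, at up to 0.297, 0.460 and 0.637 CPM.

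An unadjusted p under 0.05 was reached by 10 of the 29 genes as lower and by 1 as higher, against 7.99% and 9.8% of all genes, and 22 of the 29 had a negative fold change (50.1% of all genes). The median was -0.18, against 0.00 over all genes. In 10 genes, Pdk1 included, every K74R library lay below every WT library, against 10.8% of all genes. Ldha had 290.3, 289 and 269 CPM in K74R bone marrow, against 368, 332 and 418 CPM in WT bone marrow (log2 fold change -0.40, SE 0.09, adjusted p = 0.0936 from edgeR quasi-likelihood testing with Benjamini-Hochberg correction). Gapdh had 631, 586 and 568 CPM in K74R bone marrow, against 863, 659.7 and 796 CPM in WT bone marrow, and Tpi1, Pgk1, Eno1 and Pkm, none overlapping, had log2 fold changes of -0.36, -0.33, -0.36 and -0.27. Aldoa was apart by less than the printed digits, with 302, 283 and 281 CPM in K74R bone marrow, against 378, 302 and 376 CPM in WT bone marrow. WT 2 was the lowest WT library for each of these genes. The 17 summed enzymes came to 3780, 3595 and 3471 CPM in K74R bone marrow, against 4798, 3877 and 4619 CPM in WT bone marrow. Slc2a3, the main transporter there, had 276, 273 and 286 CPM in K74R bone marrow, against 308, 306 and 293 CPM in WT bone marrow, and Hif1a had 78.4, 77.9 and 77.1 CPM in K74R bone marrow, against 88, 84.6 and 81.6 CPM in WT bone marrow, both a little lower without overlap and with unadjusted p of 0.107 and 0.101 by edgeR's quasi-likelihood test.

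At the unadjusted threshold 1 gene was higher in K74R marrow. Pfkfb3, whose product makes the phosphofructokinase activator fructose-2,6-bisphosphate, had 85.1, 88 and 91.1 CPM in K74R bone marrow, against 69, 73.7 and 67.3 CPM in WT bone marrow (log2 fold change 0.33, SE 0.07, adjusted p = 0.0889 from edgeR quasi-likelihood testing with Benjamini-Hochberg correction). The groups did not overlap. Its relative Pfkfb4 overlapped, with 85.9, 76.6 and 79.3 CPM in K74R bone marrow, against 90.2, 70.6 and 72.2 CPM in WT bone marrow. Slc2a1, Slc16a3, Vegfa, Bnip3, Car9, P4ha1, Egln1 and Egln3 also overlapped between genotypes, with log2 fold changes between -0.25 (Slc2a1) and 0.13 (Bnip3). Beside these values, 15 neutrophil markers summed to 31550 to 34650 CPM in K74R, against 37670 to 41040 CPM in WT (0 of 15 passed, 2 positive). The 11 B cell markers summed to 986 to 1396 CPM in K74R, against 448 to 908 CPM in WT (0 of 11 passed, all 11 positive). The 10 T and NK cell markers summed to 64.9 to 72.8 CPM in K74R, against 44.2 to 46.3 CPM in WT (0 of 10 passed, all 10 positive). The 8 proliferation markers summed to 7729 to 9067 CPM in K74R, against 8378 to 9830 CPM in WT (0 of 8 passed). The 10 immediate early and handling genes summed to 180.2 to 254 CPM in K74R, against 128 to 170.4 CPM in WT (2 of 7 tested rose). Of all genes 0.773% were called in either direction in bone marrow. Erythroid markers overlapped between genotypes. The part of these markers in the glycolytic values was not tested.

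In tumors no gene passed. Of 32 tested, 26 lay above 0 in log2 fold change, at a median of 0.22, against 51.2% positive and a median of 0.01 over all 14779 genes. By edgeR quasi-likelihood testing with Benjamini-Hochberg correction 0 were called (0.0406% of all genes), and 5 were higher at an unadjusted p under 0.05 (5.05% of all genes). DESeq2 and limma-voom also called 0. In 8 genes (Gpi1, Aldoc, Tpi1, Gapdh, Pgk1, Eno1, Pkm and Ldha) every K74R tumor lay above every WT tumor, against 7.5% of all genes. Without K74R tumor 3 the median was 0.03.

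Ldha had the smallest unadjusted p in tumors, with 1195, 1269 and 1542 CPM in K74R tumors, against 1076, 1082 and 969 CPM in WT tumors (log2 fold change 0.37, SE 0.11, adjusted p = 0.347 from edgeR quasi-likelihood testing with Benjamini-Hochberg correction). Pgk1 had 857, 891 and 1190 CPM in K74R tumors, against 813, 814 and 659.7 CPM in WT tumors, and Pkm, pyruvate kinase, had 1768, 1701 and 2107 CPM in K74R tumors, against 1597, 1576 and 1505 CPM in WT tumors. The 17 summed enzymes came to 9260, 9562 and 11600 CPM in K74R tumors, against 8825, 8880 and 7858 CPM in WT tumors. For the hypoxia-induced genes 1 library stood at each end. Car9 had 14.7, 14.6 and 35.1 CPM in K74R tumors, against 17.9, 18.8 and 7.7 CPM in WT tumors, Slc2a1 had 97.5, 137 and 232 CPM in K74R tumors, against 128, 148 and 76.7 CPM in WT tumors, and Bnip3 had 103, 125 and 199 CPM in K74R tumors, against 118, 131 and 68.1 CPM in WT tumors. K74R tumor 3 was the highest and WT tumor 3 the lowest of all 6 in each of these. Among the other 4, the genotypes overlapped for Slc2a1 and Bnip3, and both K74R tumors were below both WT tumors for Car9. Vegfa had the same order at its ends, with 66.8, 75.5 and 119 CPM in K74R tumors, against 70.4, 72.7 and 50.1 CPM in WT tumors. Hif1a had 216, 259.7 and 222 CPM in K74R tumors, against 216, 256 and 236 CPM in WT tumors, with a log2 fold change of -0.01 (SE 0.09). Macrophage markers summed to 628 to 1001 CPM in K74R tumors, against 1075 to 1180 CPM in WT tumors (0 of 10 passed). Endothelial markers summed to 135 to 178 CPM in K74R tumors, against 185 to 223 CPM in WT tumors (0 of 9 passed). The 10 immediate early and handling genes summed to 327 to 432 CPM in K74R tumors, against 446 to 488 CPM in WT tumors (0 of 10 passed). Of all genes 0.0406% were called in either direction in tumors. Their part in the values was not tested.

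**Figure D5:**
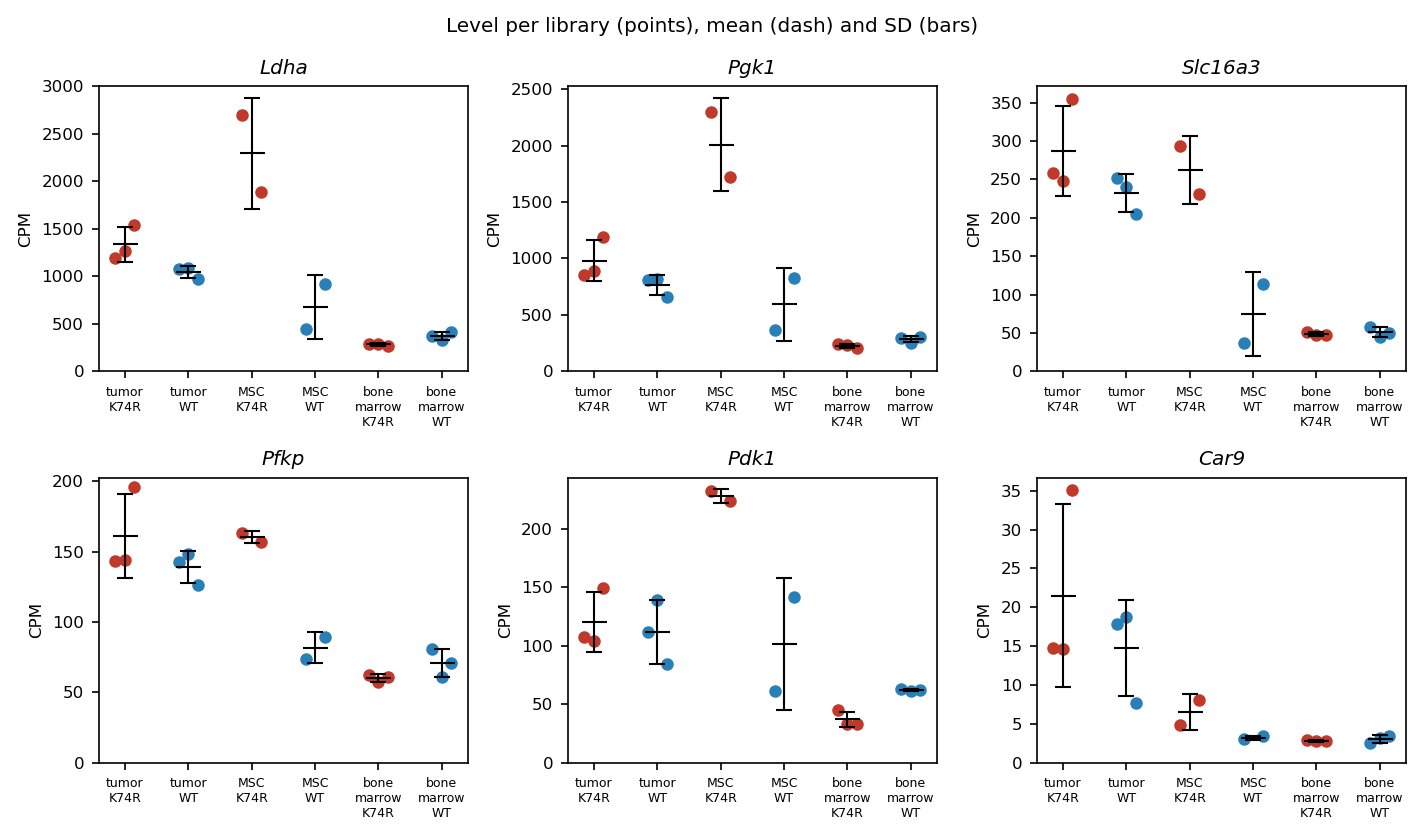
CPM per library (points; red K74R, blue WT), group mean (dash) and SD (bars) of 6 genes in tumor, MSC and bone marrow. Ldha, Pgk1 and Slc16a3 are apart by genotype in MSC, Pdk1 is lower in the 3 K74R bone marrow libraries, and 1 K74R tumor and 1 WT tumor set the ends for Car9.

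The difference between tissues in the genotype effect was tested directly, in a model of all 16 libraries. That model shares 1 spread per gene among the tissues. Replicate libraries differed more in MSC (chi-square of counts per degree of freedom 58.7 and 51.4) than in the other tissues (6.86 to 19.6). By edgeR on the MSC libraries alone, 0 of 32 genes passed between genotypes. For MSC minus bone marrow 13 of 32 genes passed, all higher, with a median of 1.01, by edgeR quasi-likelihood testing with Benjamini-Hochberg correction; 18.8% of all 18191 genes were called and 10.8% as higher. They were Hk1, Gpi1, Pfkp, Aldoa, Tpi1, Gapdh, Pgk1, Pgam1, Eno1, Pkm, Ldha, Pdk1 and Slc16a3, that is, an enzyme or transporter at nearly every step from hexokinase to lactate export. Ldha (2.17, SE 0.34), Pgk1 (2.11, SE 0.37) and Pdk1 (1.94, SE 0.40) differed most among these 13, and Hk1 least (0.72, SE 0.21). None of Vegfa, Bnip3, Car9, Adm, Egln1, Egln3, Ankrd37, P4ha1 and Hif1a passed, although the estimate for Ankrd37 (2.18, SE 0.89) was the largest of the 32. For tumor minus MSC 4 passed, all lower, with 10.6% of all genes called (6.48% lower): Ldha (-1.40, SE 0.34), Pgk1 (-1.41, SE 0.37), Slc16a3 (-1.51, SE 0.45) and Pfkp (-0.77, SE 0.22). Their promoters, with that of Pdk1, are the ones printed above. Leaving out 1 library moved the calls for MSC minus bone marrow between 10 (without K74R MSC 1) and 18 (without WT MSC 2), and those for tumor minus MSC between 0 (without K74R MSC 1) and 17 (without WT MSC 2). The tumor minus MSC calls were 8 without K74R MSC 2 or K74R tumor 3, 2 without WT MSC 1 or WT tumor 2, and 1 without K74R tumor 1, K74R tumor 2 or WT tumor 1. For tumor minus bone marrow 0 passed, with 0.0385% of all genes called, and 7 had an unadjusted p under 0.05, against 11.5% of all genes. By DESeq2 and limma-voom 0 passed as well. The contrasts with MSC share the same 4 MSC libraries. No share of all genes was computed for the fits without a library.

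Genes of the surrounding pathways were taken from 5 lists that hold none of the 32. In WT tumors 23 of 34 further HIF-induced genes were higher and 6 lower than in WT bone marrow, beside 36.5% and 36.2% of all genes. Among them were Plod2, a collagen lysyl hydroxylase (7.31), and P4ha2, a collagen prolyl hydroxylase subunit (6.45), as higher, and Pygl, liver glycogen phosphorylase (-6.07), and the mitophagy receptor gene Bnip3l (-2.41) as lower. Of 17 other glycolytic enzymes and transporters 2 were higher and 12 lower, among the 12 the erythroid genes Bpgm (-4.54) and Pklr, which had 0 counts in all 3 WT tumors, against 34.5, 40.1 and 39.3 CPM in WT bone marrow. In WT MSC 18 of the 34 were higher and 5 lower, and of the 17, 2 were higher and 10 lower, beside 33.5% higher and 36% lower of all genes.

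Between genotypes few genes of these lists passed within a tissue. Of 31 further HIF-induced genes tested in bone marrow 1 rose and 1 fell, beside 0.773% of all genes called. Ddit4, an inhibitor of mTOR signalling, rose, with 13.6, 16.6 and 15 CPM in K74R against 4.73, 4.9 and 5.19 CPM in WT (log2 fold change 1.61, SE 0.15, adjusted p = 0.00242 from edgeR quasi-likelihood testing with Benjamini-Hochberg correction). In the same list Ggh, which encodes gamma-glutamyl hydrolase, fell, with 20.1, 20.3 and 18.2 CPM in K74R against 31.4, 28.7 and 29.6 CPM in WT (log2 fold change -0.61, SE 0.09, adjusted p = 0.0256 from edgeR quasi-likelihood testing with Benjamini-Hochberg correction). In MSC 2 of 34 rose and 2 fell, beside 3.34% of all genes called. Ddit4 rose, with 51.8 and 36.3 CPM in K74R MSC against 13.6 and 16.5 CPM in WT MSC (log2 fold change 1.55), as did Plin2, a lipid droplet coat protein, with 519 and 478 CPM in K74R MSC against 233 and 235 CPM in WT MSC (1.09). In the same list the endothelial genes Edn1, which encodes a vasoconstrictor peptide, with 7.87 and 8.84 CPM in K74R MSC against 43.8 and 147 CPM in WT MSC, and Tek, an angiopoietin receptor, with 0.177 and 0.0645 CPM in K74R MSC against 5.75 and 21.2 CPM in WT MSC, fell; for Tek the K74R libraries were at or under the detection floor. Of 13 genes of the pentose phosphate and serine branches, Psat1, an enzyme of serine synthesis, rose, with 175 and 124 CPM in K74R MSC against 52.2 and 62.1 CPM in WT MSC, and so did Gpd1, cytosolic glycerol-3-phosphate dehydrogenase, with 55.4 and 52.2 CPM in K74R MSC against 2.72 and 0.204 CPM in WT MSC. The lists of other glycolytic enzymes (14 tested), pyruvate oxidation (13) and HIF pathway components (9) held 0 calls in MSC. In bone marrow the same 3 lists (17, 13 and 9 tested) and the pentose phosphate and serine list (13) held 0 calls.

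In tumors 0 genes of the 5 lists passed. Ddit4 there had 147, 172 and 156 CPM in K74R tumors, against 116, 118 and 89.7 CPM in WT tumors, with no overlap. Between tissues the genotype effect in MSC minus bone marrow passed as higher for 8 of 34 further HIF-induced genes and as lower for 2, beside 18.8% of all genes called and 10.8% called as higher. Among the 8 were Plin2, the mitochondrial gene Higd1a (1.85) and Fam162a (2.15), and the 2 were Tek (-6.47) and the VEGF receptor gene Flt1 (-2.91). In the pentose phosphate and serine list 8 of 13 passed as higher and 0 as lower, led by Psat1 (1.76), the transketolase gene Tkt (0.93) and Gpd2 (0.75). Of other glycolytic enzymes 4 of 17 were higher (Bsg, Pfkfb1 and Slc16a1 with the smallest p) and Bpgm was lower. Of pyruvate oxidation genes 4 of 13 were higher, led by Pdha1 (0.96) and Pcx (1.47), and the phosphatase gene Pdp1 was lower (-1.05). Of 10 HIF pathway components, Ep300, a coactivator, was lower (-0.68) and none was higher.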

How the data were processed

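RNA-seq libraries were made from TRIzol-extracted RNA with a KAPA mRNA HyperPrep kit, per the labels' protocols. The submitters' processing notes name FastQC, MultiQC, Trimmomatic 0.38, HISAT2 2.1.0, featureCounts 1.6.0 and the mouse build GRCm38. The sources used here give no annotation, strand setting or rule for multi-mapped reads. The values are raw read counts per Ensembl gene ID, deposited by the authors in 1 table with 16 columns; per the file headers each column is 1 sample. All 55536 IDs were matched to GENCODE M21 for symbols and exon lengths; Aldoa had 2 IDs, and the coding gene was used. Some column names are spelled differently from the sample titles, and columns were matched through the rest of the name. Library totals ran from 14067259 to 18923751 counts, and low genes are limited by counting error.

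Each tissue's genotype comparison used edgeR's quasi-likelihood test (edgeR 4.0.16, limma 3.58.1, R 4.3.3) on that tissue's libraries, with filterByExpr, TMM factors and a prior count of 0.125. Tissue contrasts and differences of genotype effects came from 1 model of all 16 libraries in 6 groups. P-values were adjusted over all genes tested by the Benjamini-Hochberg method, and an adjusted p under 0.05 was called. Printed CPM use the library total times the TMM factor over all 16 libraries; CPM per kilobase divides by the union of exons. The edgeR fit was also run on simulated counts with the same spread for every gene and tissue. MSC replicates differed more than those of the other tissues, so that simulation does not cover the MSC setting. No result here rests on it. Alternatives were DESeq2 1.42.0, limma-voom, other scalings and filters, a replicate block, 1 model of all libraries, K74R in place of WT libraries, and each library left out; leaving libraries out of the differences of genotype effects, and crossed pairs in MSC, were added after seeing the data.

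The members, lists and tests were chosen with earlier results of these data known. Within each pathway list and comparison, at most 3 genes past the threshold per direction, those with the smallest p, are named; Ddit4 in tumor was named after its values were seen. Replicate libraries differed by more than counting noise in every pair (chi-square per degree of freedom 6.86 to 58.7), so none was treated as a duplicate deposit; this does not show that they came from different mice or cultures. Replicate numbers were not used as pairs. Same-numbered libraries deviated together in some pairs and not in others, and this check cannot decide whether libraries were paired.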

Additional observations from a re-analysis of the deposited data

Results flagged for a closer look

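The genotype effect (K74R over WT) differed between tissues by the test of the difference itself for the genes below, with adjusted p-values from edgeR quasi-likelihood testing with Benjamini-Hochberg correction over 18191 genes. For MSC minus bone marrow the differences in log2 fold change were 0.72 for Hk1 (adjusted p = 0.0265), 1.13 for Gpi1 (0.00394), 1.23 for Pfkp (0.00178), 1.13 for Aldoa (0.0165), 1.51 for Tpi1 (0.00849), 1.56 for Gapdh (0.00362) and 2.11 for Pgk1 (0.00136). They were 1.33 for Pgam1 (0.0106), 1.85 for Eno1 (0.00313), 1.26 for Pkm (0.00274), 2.17 for Ldha (0.000581), 1.94 for Pdk1 (0.00416) and 1.89 for Slc16a3 (0.00946). Each of the 13 genes had a positive fold change in MSC and a negative one in bone marrow. For tumor minus MSC the differences were -0.77 for Pfkp (adjusted p = 0.0381), -1.41 for Pgk1 (0.0236), -1.40 for Ldha (0.0149) and -1.51 for Slc16a3 (0.042). Of 18 alternatives, Hk1 passed in 12, Aldoa in 16 and Pgam1 in 17 for MSC minus bone marrow, and the other 10 genes passed in all 18. For tumor minus MSC, Ldha passed in 17, Pgk1 in 14, Pfkp in 11 and Slc16a3 in 10 of 18. Every alternative shared 1 spread among the tissues, so these numbers do not test that choice. By edgeR on the MSC libraries alone, 0 of 32 genes passed between genotypes.

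Macrophage, endothelial, adipocyte and proliferation markers also differed between genotypes in MSC, as given beside those results, and their part was not tested. No group had more than 3 libraries, so no test for a single outlying library was made.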

How the results depend on the processing

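Of the values that summarise a comparison, 406 alternatives kept the count within 1.5 times or the value within its tolerance, and 56 did not. For a median log2 fold change the tolerance was the spread between libraries of the list's median level. A count of 0 in both fits was scored as kept. Single genes were followed only where the main edgeR fit had an unadjusted p under 0.05, with tissue contrasts and genotype tests pooled. Among these, 2100 kept their direction and side of the threshold, 88 no longer passed, 135 newly passed and 8 turned direction. In bone marrow the called genes were 1 higher and 7 lower without a low-count filter, 1 higher and 6 lower with DESeq2, and 0 lower with all 16 libraries in 1 model; leaving out 1 library gave 0 to 1 higher and 0 to 9 lower. In MSC 16 genes were called higher without a filter, 12 with DESeq2 and 17 with all 16 libraries; leaving out 1 library gave 0 to 4. In tumors 9 were called higher without a filter. The cause of these moves was not tested, beyond the number of genes tested and the libraries that share the spread. Shares of all genes called were computed for the main edgeR fits alone. Counts under an alternative or without a library therefore have no background beside them.

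With K74R in place of WT libraries the median log2 fold change was 1.84 for tumor against bone marrow and 2.59 for MSC against bone marrow, with 2 genes lower in MSC, and Hk2 (0.18) and Gpi1 (0.61) turned to higher. For tumor against MSC it was -0.68, with 3 genes higher and 18 lower, and Pfkp (-0.01), Tpi1 (-0.35), Gapdh (-0.20), Ldha (-0.80) and Ankrd37 (-0.17) turned to lower. Leaving out 1 library moved the lower calls of MSC against bone marrow between 3 and 5 and their median between 0.53 and 1.53, where Pdk1 ran from -0.033 (without WT MSC 2) to 1.166, and the higher calls of tumor against MSC between 5 and 14. With library size alone the median of all genes was 0.17 for tumor against bone marrow and 0.25 for tumor against MSC, so tissue differences there are read against that shift.

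For genotype effects, tumor minus bone marrow had 5 genes higher without a filter. The MSC minus bone marrow median ran from 0.57 to 1.40 when 1 library was left out. Tumor minus MSC had 17 genes lower without a filter, 8 with DESeq2, 8 with limma-voom and 0 to 17 with 1 library left out. Per longest transcript in place of the union of exons the shares were 42.1% for Hk3 in bone marrow, 36.6% for Hk2 in tumor, 49.6% for Pfkm in bone marrow, 62.8% for Pfkl in tumor, 98.5% for Aldoa and 99.6% for Eno1 in tumor, 96.2% for Ldha in bone marrow and in tumor, 48.3% for Egln2 in bone marrow, 60.3% for Pdk3 in bone marrow and 67.9% for Pdk4 in MSC.

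The replicate numbers of the titles were not used as pairs. Same-numbered correlations of deviations were 0.332, 0.156 and -0.110 in bone marrow, -0.216 in each MSC pair, and 0.024, -0.026 and 0.094 in tumor. With 2 libraries per genotype the MSC values are the same number by construction. In bone marrow 0.332 was the highest of any pair. This check cannot decide whether libraries were paired. With the replicate block 4 genes were called higher in MSC, 0 higher and 1 lower in bone marrow, 0 in tumor and 2 lower for tumor minus MSC. With the MSC pairs crossed, 9 genes were called higher and 0 lower. Depth limits Eno2, Adm and Ankrd37, which were too low to test in bone marrow, and the 2 libraries a genotype in MSC limit every call there.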
